A study of Mus musculus with 6 samples.

Results

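The regulators of mitochondrial biogenesis are the nuclear genes whose products set how much of the respiratory chain and of the mitochondrial genome's RNA a cell makes. The 10 genes described here were chosen by name: the PGC-1 coactivators Ppargc1a, Ppargc1b and Pprc1, the nuclear factors Nrf1, Gabpa, Gabpb1 and Esrra, and the mitochondrial transcription factors Tfam, Tfb1m and Tfb2m. All 10 were found by symbol among the 48526 gene identifiers of the count tables, and 9 of the 10 had enough counts to be tested, with 14531 genes tested in all. Expression was measured by RNA sequencing in mouse cells labelled KP, in 3 libraries without and 3 with doxycycline. Every library came from a puromycin-selected stable line that carried a doxycycline-inducible pLKO.1 vector (Tet on) with a hairpin against Npm1: shNpm1-3 in line 3, shNpm1-4 in line 4 and shNpm1-5 in line 5. Npm1 encodes nucleophosmin, an abundant nucleolar protein and histone chaperone, and the comparison asks how its depletion changes gene expression. The untreated group held 1 library of each line without the drug, and the treated group 1 library of each line given 100 ng/ml doxycycline, so the 3 lines are the replicates and n = 3 throughout. The untreated lines carry the vector too, and no library has doxycycline without a hairpin, so hairpin and drug cannot be told apart; doxycycline is a tetracycline, a class known to inhibit translation on mitochondrial ribosomes.

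PGC-1 alpha (Ppargc1a), PGC-1 beta (Ppargc1b) and the PGC-1-related coactivator (Pprc1) do not bind DNA themselves. They dock on DNA-bound factors, among them NRF-1 (Nrf1), GABP (the DNA-binding subunit Gabpa with the activating subunit Gabpb1) and the estrogen-related receptor ERR alpha (Esrra), which switch on nuclear genes of the respiratory chain and the genes of the mitochondrial transcription machinery. Inside mitochondria, Tfam packages mitochondrial DNA and activates its promoters, Tfb2m opens the promoter for the mitochondrial RNA polymerase, and Tfb1m methylates the RNA of the small mitochondrial ribosomal subunit. PGC-1 alpha is known for high levels in brown fat, heart and skeletal muscle and for its induction by cold, fasting and exercise.

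Since NRF-1, GABP and ERR alpha act through short DNA motifs, and members of the set are known as targets of one another, the promoter sequences of members are shown with the matches found in them. Promoters spanned 250 bases before to 50 bases after each annotated start (RefSeq, build GRCm38.p6), and 11 promoters of 9 members were available among 32851 searched. Both strands were searched for the NRF-1 motif GCGCATGCG and its core GCATGCG, the GABP motif CCGGAAGTG and its core CCGGAAG, and the ERR motif TCAAGGTCA and its core AAGGTCA; each core lies within its motif. Gabpa (chr16:84834874-84835153, plus strand), Tfb2m (chr1:179546247-179546526, minus strand) and Tfb1m (chr17:3557726-3558005, minus strand) are shown from 250 bases before to 30 bases after the start, the first pair for their matches and Tfb1m as the mitochondrial factor whose treated and untreated libraries did not overlap. For Tfam (chr10:71238073-71238102, minus strand) and Esrra (chr19:6921824-6921853, minus strand) 30 bases around the only match are shown. Sequences read 5′ to 3′ on the gene's strand, and capitals mark the matches.
Gabpa: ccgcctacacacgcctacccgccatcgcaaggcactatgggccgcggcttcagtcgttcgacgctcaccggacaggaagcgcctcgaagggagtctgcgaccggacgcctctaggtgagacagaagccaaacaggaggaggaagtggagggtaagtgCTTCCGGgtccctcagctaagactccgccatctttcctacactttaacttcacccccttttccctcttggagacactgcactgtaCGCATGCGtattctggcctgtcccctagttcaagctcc
Tfb2m: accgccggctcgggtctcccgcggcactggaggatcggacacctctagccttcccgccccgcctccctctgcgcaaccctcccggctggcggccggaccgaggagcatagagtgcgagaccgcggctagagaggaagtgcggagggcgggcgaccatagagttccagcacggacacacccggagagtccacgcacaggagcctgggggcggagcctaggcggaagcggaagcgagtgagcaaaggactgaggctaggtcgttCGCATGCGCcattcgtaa
Tfb1m: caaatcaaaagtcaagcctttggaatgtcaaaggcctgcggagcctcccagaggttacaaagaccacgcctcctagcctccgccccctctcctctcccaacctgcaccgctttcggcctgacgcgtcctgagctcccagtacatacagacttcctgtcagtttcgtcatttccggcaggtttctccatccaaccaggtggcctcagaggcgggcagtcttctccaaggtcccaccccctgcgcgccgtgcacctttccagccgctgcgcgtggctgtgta
Tfam: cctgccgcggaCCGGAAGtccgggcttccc
Esrra: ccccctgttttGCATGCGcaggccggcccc

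The full NRF-1 motif was found in 1 member, Tfb2m, on the reverse strand from position +13, and its core in 3, adding Esrra at position -34 and Gabpa at position -8, where the core is present on both strands in overlapping positions. Among all promoters, 1.75% held the motif and 3.58% the core. The GABP core was found in Gabpa itself, on the reverse strand at position -93, and in Tfam at position -47. It was present in 8.86% of all promoters, and the full GABP motif, present in 2.03%, was found in no member. The ERR motif and its core, present in 0.423% and 4.72% of promoters, were found in no member. Promoters of Ppargc1a, Pprc1, Nrf1, Gabpb1 and Tfb1m held none of these letters. GC content ran from 46.3% in the second Nrf1 promoter to 77.0% in the first, against a median of 52.7% over all promoters. A match is a description of the letters and no measure of binding, which was not assayed.

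Counts assigned to genes ran from 24391198 to 27341036 per library. Scaled to these totals alone, without TMM factors, 3 counts equal 0.110 to 0.123 CPM. Elsewhere CPM is the count of a gene scaled to library size with TMM factors. On that scale 3 counts of Ppargc1b were 0.116 CPM in untreated line 3 and 0.0991 CPM in treated line 4. Npm1 fell from 1926 ± 75.4 CPM (SD, n = 3) without doxycycline to 67.8 CPM in line 3, 245 CPM in line 4 and 400 CPM in line 5 (log2 fold change -3.02, SE 0.49, adjusted p 0.0110 with edgeR). That call was lost without the untreated library of line 3 (adjusted p 0.0937) or without line 4 (0.177). The treated libraries differed more from each other than the untreated ones: the chi-square per degree of freedom over genes was 7.86 to 22.6 between untreated libraries, 35.8 between treated lines 4 and 5, and 80.9 and 108 between treated line 3 and those. Markers of other cells moved with the treatment. Of 17 macrophage markers tested (of 18), 11 were called higher (edgeR adjusted p under 0.05) and 13 had log2 fold changes above 0. Of all tested genes, 2.28% were called in either direction. The macrophage markers had a median log2 fold change of 3.57. Their sums overlapped, at 415 to 485 CPM without and 416 to 621 CPM with doxycycline. None of the 18 was at 0 in every library. Of 16 T lymphocyte markers 12 were called lower, and all 16 had log2 fold changes below 0, with a median of -5.08. Their sum was 32.4 to 43.2 CPM without and 8.26 to 10.6 CPM with doxycycline, again with none at 0 in every library. Of 3 tested B lymphocyte markers (of 9) 2 were called lower, of 3 tested fibroblast markers (of 9) 1, and of 3 tested endothelial markers (of 9) 0. The epithelial markers summed to 15504 to 17822 CPM without and 11880 to 16578 CPM with doxycycline. Of 9 tested, 1 was called lower and 8 had log2 fold changes below 0, and Nkx2-1 was at 0 in every library. The 8 brown fat and muscle markers summed to 5.11 to 7.05 CPM without and 1.42 to 7.14 CPM with doxycycline. Of these 8, 1 was tested, and Ucp1 and Plin1 were at 0 in every library. The part of these markers in the results below was not tested, and in such bulk libraries fewer cells of a type and less RNA per cell cannot be told apart.

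None of the 9 tested regulators passed an adjusted p of 0.05 (edgeR quasi-likelihood test, Benjamini-Hochberg adjustment over all genes), and 2.28% of all tested genes did. DESeq2 and limma-voom called none of the 9 either, and 1 of them, Tfb1m, had an unadjusted edgeR p under 0.05, which 16.3% of all tested genes had. In 2 of the 9, Ppargc1a and Tfb1m, the treated and untreated libraries did not overlap, and 22.6% of tested genes showed this in either direction. Both were higher with doxycycline, as were 11.3% of tested genes. The median log2 fold change of all genes was 0.00, and 50.4% of them lay above 0.

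Of the coactivators, Ppargc1a had the largest fitted difference of the 9 tested regulators and the lowest level among them. Ppargc1a, the gene of PGC-1 alpha (chromosome 5, 51454250 to 51567726, minus strand, mm10), measured 1.58, 1.18 and 1.42 CPM in untreated lines 3, 4 and 5 and 2.20, 2.08 and 2.03 CPM with doxycycline. All 3 treated libraries lay above all untreated ones. These levels rest on 30 to 41 counts per untreated and 48 to 63 counts per treated library, and the log2 fold change of 0.59 (SE 0.27, 95% interval -0.01 to 1.20) had an unadjusted edgeR p of 0.0546 and an adjusted p of 0.319. Pprc1, a coactivator known to be induced when cells are stimulated to grow (chromosome 19, 46044886 to 46072915, plus strand), measured 26.9, 29.9 and 29.5 CPM without and 28.6, 36.5 and 30.9 CPM with doxycycline. Treated line 4 was the highest library, and treated line 3 lay within the untreated range. Its log2 fold change was 0.16 (SE 0.14, 95% interval -0.15 to 0.46, edgeR adjusted p 0.638), and it was 0.38 with offsets for length and GC content (SE 0.11, adjusted p 0.149 there, 0.149 to 0.941 over all alternatives) and 0.05 without treated line 4.

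Ppargc1b, the gene of PGC-1 beta, was near the floor of detection. It had 3, 8 and 16 counts without and 7, 3 and 7 counts with doxycycline in lines 3, 4 and 5, which is 0.116 to 0.614 CPM and 0.0991 to 0.320 CPM. The groups overlapped, and the gene did not pass the filter on low counts. Without that filter its log2 fold change was -0.65 (SE 0.63, adjusted p 0.699 with edgeR).

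**Figure D1:**
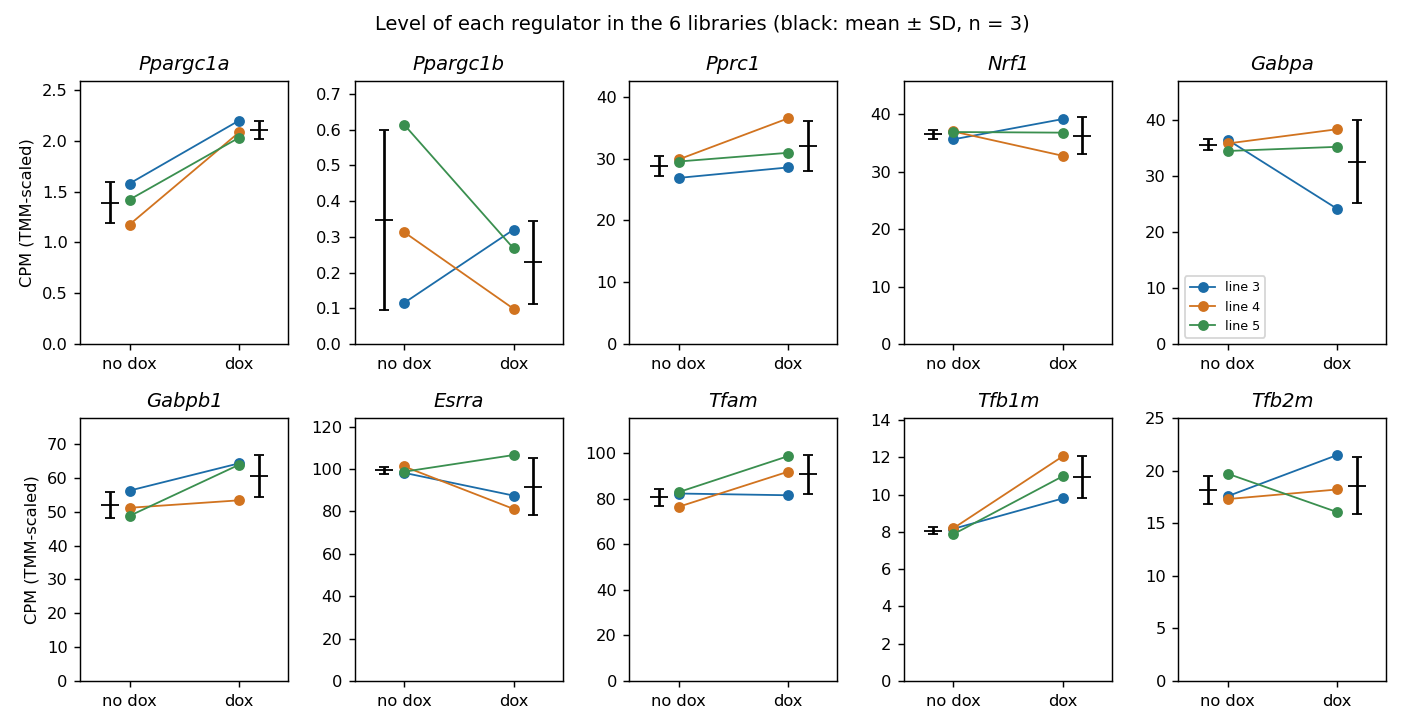
Level of each of the 10 regulators in CPM (TMM-scaled, linear axes from 0) without and with doxycycline; coloured points joined by a line are the libraries of 1 stable line, and black bars give the mean ± SD (n = 3). Only Ppargc1a and Tfb1m have all treated points above all untreated points, and Ppargc1b lies below 0.7 CPM throughout.

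In the nuclear factors Nrf1, Gabpa and Esrra the group means differed by less than 1 SD of the treated lines. Nrf1, which encodes NRF-1 (chromosome 6, 30047988 to 30153458, plus strand), measured 35.7, 37.03 and 36.9 CPM without and 39.2, 32.8 and 36.8 CPM with doxycycline. Treated line 3 was the highest and treated line 4 the lowest of all libraries, and the log2 fold change was -0.01 (SE 0.12, 95% interval -0.29 to 0.27, edgeR adjusted p 0.979). Gabpa, the DNA-binding subunit of GABP (chromosome 16, 84834925 to 84863779, plus strand), measured 36.4, 35.8 and 34.4 CPM without doxycycline. With it the levels were 24.1 CPM in line 3, 38.3 CPM in line 4 and 35.2 CPM in line 5. Only treated line 3 was low, and the log2 fold change of -0.13 (SE 0.17, 95% interval -0.51 to 0.25, edgeR adjusted p 0.778) became 0.05 without that library (SE 0.12).

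Gabpb1, the subunit that carries the activation domain of GABP (chromosome 2, 126627442 to 126676337, minus strand), measured 56.2, 51.1 and 48.8 CPM without and 64.3, 53.3 and 63.9 CPM with doxycycline. Treated lines 3 and 5 lay above all untreated libraries, and treated line 4 lay within their range (log2 fold change 0.22, SE 0.13, 95% interval -0.07 to 0.50, edgeR adjusted p 0.449). Esrra, which encodes ERR alpha, an orphan nuclear receptor and a main partner of PGC-1 alpha (chromosome 19, 6910977 to 6921813, minus strand), measured 98.2, 101 and 98.7 CPM without and 87.4, 81.2 and 107 CPM with doxycycline. Treated lines 3 and 4 were the lowest libraries and treated line 5 the highest. The log2 fold change was -0.12 (SE 0.13, 95% interval -0.41 to 0.18, edgeR adjusted p 0.727).

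Among the mitochondrial transcription factors, Tfam (chromosome 10, 71225464 to 71238280, minus strand) measured 82.2, 76.4 and 82.9 CPM without and 81.5, 91.8 and 98.7 CPM with doxycycline. Treated lines 4 and 5 lay above all untreated libraries, and treated line 3 lay among them (log2 fold change 0.17, SE 0.12, 95% interval -0.10 to 0.44, edgeR adjusted p 0.538). Tfb1m, the rRNA methyltransferase (chromosome 17, 3519256 to 3557781, minus strand), measured 8.16, 8.19 and 7.87 CPM without and 9.80, 12.1 and 11.0 CPM with doxycycline. Every treated library lay above every untreated one, and the untreated lines had a coefficient of variation of 2.19%. The log2 fold change of 0.44 (SE 0.17, 95% interval 0.07 to 0.81) had an unadjusted edgeR p of 0.0238 and an adjusted p of 0.224. Tfb2m, the promoter-opening factor (chromosome 1, 179528055 to 179546267, minus strand), measured 17.6, 17.3 and 19.7 CPM without and 21.5, 18.2 and 16.1 CPM with doxycycline. Treated line 3 was the highest and treated line 5 the lowest library, with a log2 fold change of 0.03 (SE 0.16, 95% interval -0.32 to 0.38, edgeR adjusted p 0.954). Across the 9 tested regulators, leaving out treated line 3, the library that stood apart, gave log2 fold changes from -0.08 for Tfb2m to 0.57 for Ppargc1a, and the lowest edgeR adjusted p was 0.0586, for Tfb1m.

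**Figure D2:**
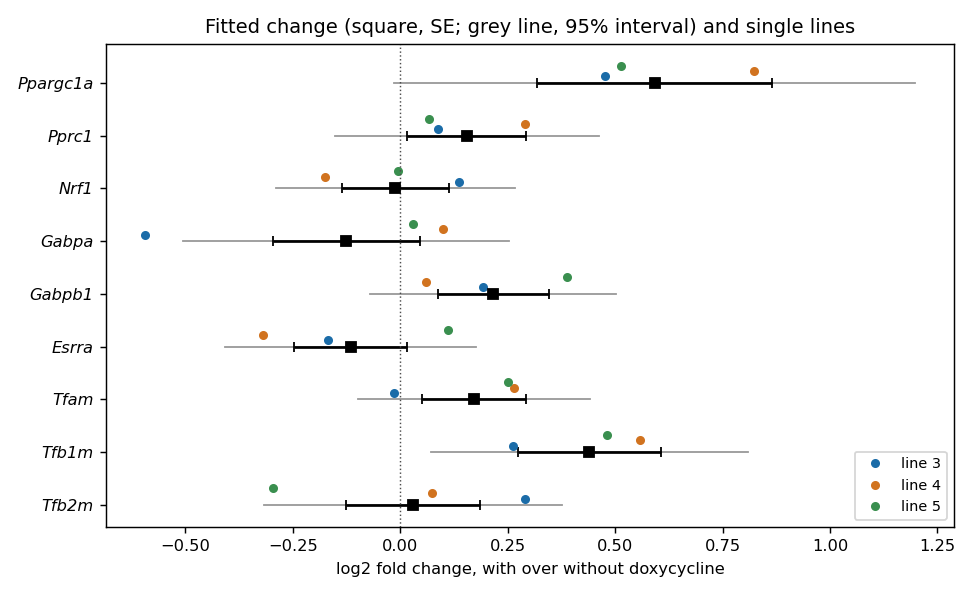
Log2 fold change with over without doxycycline for the 9 tested regulators; squares are the edgeR estimates with their SE (black) and 95% interval (grey), and coloured points are the ratios within single lines. The interval of Tfb1m alone lies above 0 (0.07 to 0.81), and the Gabpa point of line 3 stands apart from those of lines 4 and 5.

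The spread between lines was wider with doxycycline. In 8 of the 9 tested regulators the coefficient of variation over the 3 lines was larger with the drug: it went from 1.61% to 14.4% in Esrra, from 2.85% to 22.9% in Gabpa and from 2.10% to 8.90% in Nrf1. The exception was Ppargc1a, at 14.6% without and 4.10% with doxycycline. Over the 10197 genes with at least 5 CPM on average, the median coefficient of variation went from 8.17% to 15.1%, and 76.3% of them had the larger one with doxycycline, so the regulators shared a spread seen across the libraries.

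Ratios within each line put a counting error on these differences. Of the 30 ratios of treated to untreated CPM (10 genes in 3 lines), 11 had a 95% counting interval above 1, 5 below 1 and 14 held 1. These intervals cover counting error only and not the spread between cultures of a line, of which there was 1 per condition. Libraries of the same group already differed beyond counting error, with a chi-square per degree of freedom of 7.86 to 108. The share of such intervals over all tested genes was not computed, so these counts are not particular to the regulators. In Tfb1m the ratios were 1.20 in line 3 (0.988 to 1.46), 1.47 in line 4 (1.24 to 1.75) and 1.40 in line 5 (1.16 to 1.68). In Tfam they were 0.991 in line 3 (0.930 to 1.06), 1.20 in line 4 (1.13 to 1.27) and 1.19 in line 5 (1.12 to 1.26). Gabpa had a ratio of 0.662 in line 3 (0.594 to 0.738), and its intervals in lines 4 and 5 held 1. Over the 9 tested regulators the lowest of the 3 ratios was that of line 3 in 4 genes, of line 4 in 3 genes and of line 5 in 2 genes, so no line was lowest throughout.

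**Figure D3:**
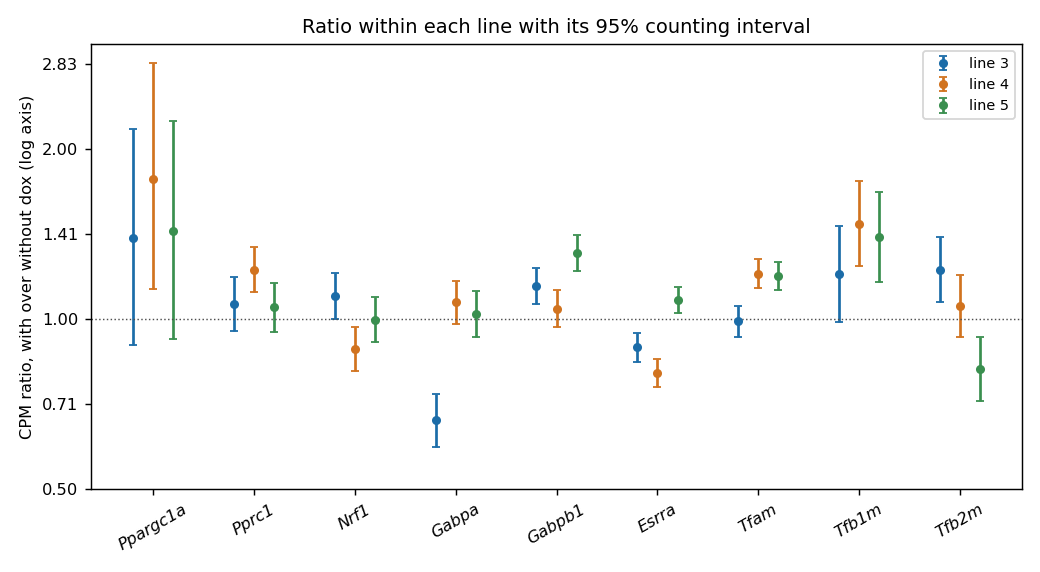
Ratio of CPM with over without doxycycline within each line (log axis) for the 9 tested regulators, with 95% intervals from the counts of the library pair. Nrf1, Esrra and Tfb2m have lines with intervals on either side of 1, and line 3 of Gabpa lies at 0.662.

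Differences between the lines irrespective of treatment were tested with edgeR in a model with doxycycline and line. No gene was called (0% of 14531), 667 genes had an unadjusted p under 0.05, and other tools called 16 (DESeq2) and 0 (limma-voom). The 9 regulators had edgeR adjusted p values between 0.881 and 0.967 for the line, at this depth and number of libraries. The test covers differences between lines that both conditions share. Differences seen only with doxycycline, as in Gabpa at 24.1, 38.3 and 35.2 CPM in lines 3, 4 and 5, also widen its error. Such differences were not tested on their own.

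To set the levels of different genes side by side, CPM were divided by the length of the longest annotated transcript in kilobases (GENCODE vM21). In untreated cells Esrra led with 39.9 ± 0.643 CPM per kilobase, followed by Tfam with 19.3 ± 0.853, Gabpb1 with 12.5 ± 0.917 and Nrf1 with 9.04 ± 0.190 (SD, n = 3). Tfb2m (7.44 ± 0.539) and Gabpa (7.13 ± 0.203) came next, with overlapping libraries, so their order was not resolved. Pprc1 had 5.48 ± 0.312 and Tfb1m 3.34 ± 0.0732 CPM per kilobase. Ppargc1a followed with 0.215 ± 0.0314 and Ppargc1b with 0.0951 ± 0.0687. Libraries of neighbouring genes did not overlap elsewhere in this order. The coactivator level was therefore made up mostly of Pprc1 RNA. The middle of the order depends on the length used: with all exonic bases Nrf1 drops to 3.55 CPM per kilobase, below Pprc1 (4.58), and with the longest protein-coding transcript the libraries of Tfb1m (5.76 ± 0.126) and Pprc1 overlap. With each length Esrra was first, Tfam the next and the PGC-1 alpha and beta genes last.

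**Figure D4:**
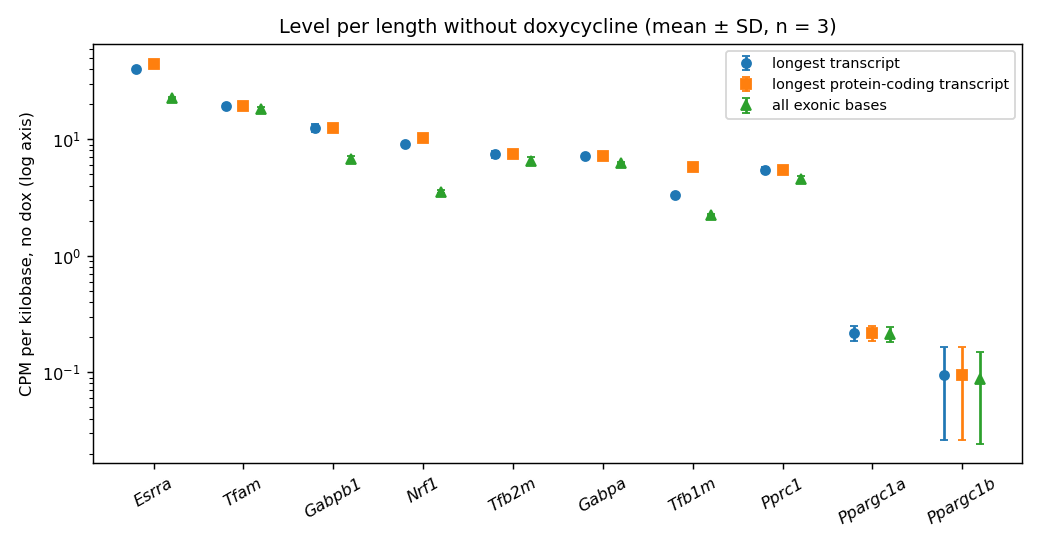
Level of each regulator without doxycycline in CPM per kilobase (log axis, mean ± SD, n = 3) with 3 choices of transcript length, ordered by the longest protein-coding transcript. Esrra (39.9 with the longest transcript) and Tfam (19.3) lead and Ppargc1a (0.215) and Ppargc1b (0.0951) are lowest with each length.

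Ratios of counts between genes of the same library do not depend on the scaling of libraries. Tfam counts were 10.1, 9.33 and 10.5 times those of Tfb1m in untreated lines 3, 4 and 5 and 8.32, 7.62 and 8.98 times with doxycycline. The treated ratios all lay below the untreated ones (log2 difference -0.27, two-sided exact permutation p 0.1, the smallest that 3 against 3 libraries allow, 0.48 after Benjamini-Hochberg adjustment over 8 ratios). Pprc1 counts were 17.0, 25.4 and 20.8 times those of Ppargc1a without and 13.0, 17.5 and 15.2 times with doxycycline, with treated line 4 above untreated line 3. Counts of Gabpa per count of Gabpb1, the partners in GABP, were 0.648, 0.700 and 0.706 without and 0.375, 0.718 and 0.551 with doxycycline, so that treated lines 3 and 5 were lower and line 4 was not. Gabpb1 per count of Gabpb2, the gene of the other activating subunit, stood at 0.788, 0.676 and 0.699 without and at 1.33, 0.684 and 0.814 with doxycycline, with treated line 3 the highest. The summed counts of the mitochondrially encoded genes were 54.1, 37.5 and 42.4 times those of Tfam without and 54.6, 39.8 and 40.3 times with doxycycline, and these groups overlapped. No ratio of the 8 could pass the threshold in this design, and the adjusted exact permutation p values ran from 0.48 to 0.9.

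In 3 of the 10 regulators another gene starts within 1000 bases on the opposite strand, as in 10.9% of 21760 annotated protein-coding genes. A start here is the outermost 5′ end of the gene in GENCODE vM21. For Pprc1 it lies at 46044886 on chromosome 19, outside the promoter searched for motifs (46056289 to 46056588). Atp5j, a subunit gene of the ATP synthase that starts 700 bases from Gabpa, measured 162 ± 13.8 CPM in untreated and 212 ± 9.80 CPM in treated lines (SD, n = 3). Its treated libraries all lay above the untreated ones (log2 fold change 0.38, SE 0.12, adjusted p 0.157 with edgeR), while those of Gabpa overlapped. Ldb1, 328 bases from Pprc1, had a log2 fold change of -0.06 (SE 0.12), and Cnst, 103 bases from Tfb2m, one of -0.13 (SE 0.20). No source used here gives the strand of the reads, and reads in exonic bases shared with an opposite-strand gene cannot be told apart. Such bases made up 6.98% of Gabpa (Atp5j), 3.93% of Tfb1m (Tiam2) and 2.82% of Pprc1 (Ldb1). They were 1.66% of Esrra (Trmt112) and 0.181% of Gabpb1 (Gm27003).

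The wider pathway was described with 7 lists of genes, none of which was tested as a set. Among partners and relatives of the regulators, 0 of 18 tested genes (of 21) passed the test, but 17 of the 18 had log2 fold changes below 0, with a median of -0.12 against 0.00 for all genes and 49.6% of all genes below 0. Pparg, a nuclear receptor that PGC-1 alpha was first found to coactivate, measured 69.1 ± 4.43 CPM without and 49.3 ± 4.79 CPM with doxycycline (log2 fold change -0.49, SE 0.13, adjusted p 0.0837 with edgeR). Mef2a, a transcription factor known for driving Ppargc1a in muscle, measured 33.1 ± 2.74 and 25.4 ± 4.64 CPM (log2 fold change -0.38, SE 0.16, adjusted p 0.273). In both, all treated libraries lay below the untreated ones. Of the other members of the ERR family, Esrrg had 0 counts in every library and Esrrb 1 count in 1 library.

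Of 30 tested genes upstream of PGC-1, such as the kinase AMPK, deacetylases and corepressors, 0 passed, with 12 above and 18 below 0 and a median of -0.03. Foxo1, a transcription factor that works with PGC-1 alpha in liver, measured 12.1 ± 0.721 CPM without and 7.51 ± 0.855 CPM with doxycycline (log2 fold change -0.69, SE 0.17, adjusted p 0.0706 with edgeR). Prkag2, a regulatory subunit of AMPK, measured 14.1 ± 1.10 and 21.1 ± 2.22 CPM (log2 fold change 0.58, SE 0.15, adjusted p 0.0849). Both had groups that did not overlap, in opposite directions. Without treated line 3 the edgeR test called Pparg, Foxo1 and Prkag2, as did DESeq2 with all libraries. These 2 settings called 1551 and 720 genes in all, against 332 in the main analysis. Over all alternatives the adjusted p values of Pparg, Foxo1 and Prkag2 ran from 0.0138 to 0.487, from 0.00985 to 0.511 and from 0.0204 to 0.523.

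Genes that act on mitochondrial DNA and RNA showed small differences. In the list for mitochondrial DNA transcription and maintenance, 0 of 27 passed, 18 lay above and 9 below 0, and the median log2 fold change was 0.09. Tefm, the mitochondrial transcription elongation factor, measured 42.2 ± 2.64 CPM without and 55.6 ± 6.14 CPM with doxycycline (log2 fold change 0.40, SE 0.13, adjusted p 0.164 with edgeR), and Mterf2, of the mitochondrial termination factor family, 20.5 ± 1.91 and 28.2 ± 3.94 CPM (log2 fold change 0.46, SE 0.15, adjusted p 0.166). In both genes all treated libraries were higher. In the list for mitochondrial RNA processing and stability, 0 of 27 passed, with 22 above and 5 below 0 and a median of 0.14. Rexo2, an exonuclease for very short RNAs, measured 42.4 ± 3.07 and 57.2 ± 11.2 CPM (log2 fold change 0.43, SE 0.15, adjusted p 0.196), and Pnpt1, the mitochondrial polynucleotide phosphorylase, 102 ± 11.8 and 131 ± 18.2 CPM (log2 fold change 0.37, SE 0.14, adjusted p 0.236). Of these 4 genes, Pnpt1 alone was called in an alternative, without treated line 3, with edgeR adjusted p values of 0.0431 to 0.815 over the alternatives. The fit without treated line 3 called 1551 genes in all, against 332 in the main analysis.

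Among 33 genes for which NRF-1 or GABP sites are known, most of them subunits of the respiratory chain, 28 lay above and 5 below 0, with a median log2 fold change of 0.24. In 14 of the 33 the treated libraries all lay above the untreated ones, and 11.3% of all tested genes showed this. Uqcrb, a subunit of complex III, was the 1 gene that passed: it rose from 65.1, 59.6 and 72.8 CPM in lines 3, 4 and 5 to 97.4, 94.4 and 99.0 CPM (log2 fold change 0.56, SE 0.12, adjusted p 0.0452 with edgeR). Its treated libraries lay closer together than the untreated ones. The call was kept in 6 of 17 alternatives, whose adjusted p values ran from 0.00366 to 0.371, and it was lost without any 1 of the untreated libraries, without treated line 4 or 5, with the replicate block (0.0678) and with offsets for length and GC content, where the log2 fold change was 0.29 (adjusted p 0.312). Among 34 tested genes (of 37) of fatty acid oxidation and other PGC-1 and ERR targets, 0 passed, 20 lay above and 14 below 0, and the median was 0.07. The lowest unadjusted p values there belonged to genes with lower levels: Vegfa, the angiogenic growth factor, measured 277 ± 27.1 CPM without and 201 ± 17.1 CPM with doxycycline (log2 fold change -0.47, SE 0.13, adjusted p 0.116 with edgeR). Ucp2, a mitochondrial carrier, measured 38.6 ± 5.28 and 27.0 ± 5.91 CPM (log2 fold change -0.52, SE 0.18, adjusted p 0.194). Both were called without treated line 3, a fit that called 1551 genes in all against 332 in the main analysis. Adjusted p values over the alternatives ran from 0.0309 to 0.560 for Vegfa and from 0.0439 to 0.768 for Ucp2 (edgeR, DESeq2 and limma-voom).

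Of the 13 protein genes of the mitochondrial genome itself, which Tfam and Tfb2m act on, 8 were tested and 0 passed. All 8 had log2 fold changes above 0, with a median of 0.30, but the median was -0.01 with offsets for length and GC content, 0.14 without untreated line 4 and 0.15 without treated line 3. mt-Nd2, a complex I subunit, measured 265, 169 and 221 CPM in untreated lines 3, 4 and 5 and 390, 244 and 336 CPM with doxycycline (log2 fold change 0.57, SE 0.21, adjusted p 0.205 with edgeR). In mt-Nd4, another subunit of complex I, the levels were 180 ± 39.8 and 238 ± 52.9 CPM (log2 fold change 0.40, SE 0.20, adjusted p 0.359). The fold change of mt-Nd4 was 0.23 without untreated line 4, 0.21 without treated line 3 and 0.11 with offsets, and that of mt-Nd2 was 0.26 with offsets. In both the groups overlapped, and in both conditions line 4 was the lowest. mt-Nd2 was called only without the filter on low counts (edgeR adjusted p 0.0203). The other 5 genes (mt-Nd3, mt-Nd4l, mt-Co2, mt-Atp6 and mt-Atp8) had at most 9 counts in any library and were not tested. Among the 8 tested genes mt-Co3 was also low, at 0.559 CPM per kilobase without and 0.640 with doxycycline. The next lowest of the 8 without doxycycline, mt-Nd5, had 130 CPM per kilobase.

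**Figure D5:**
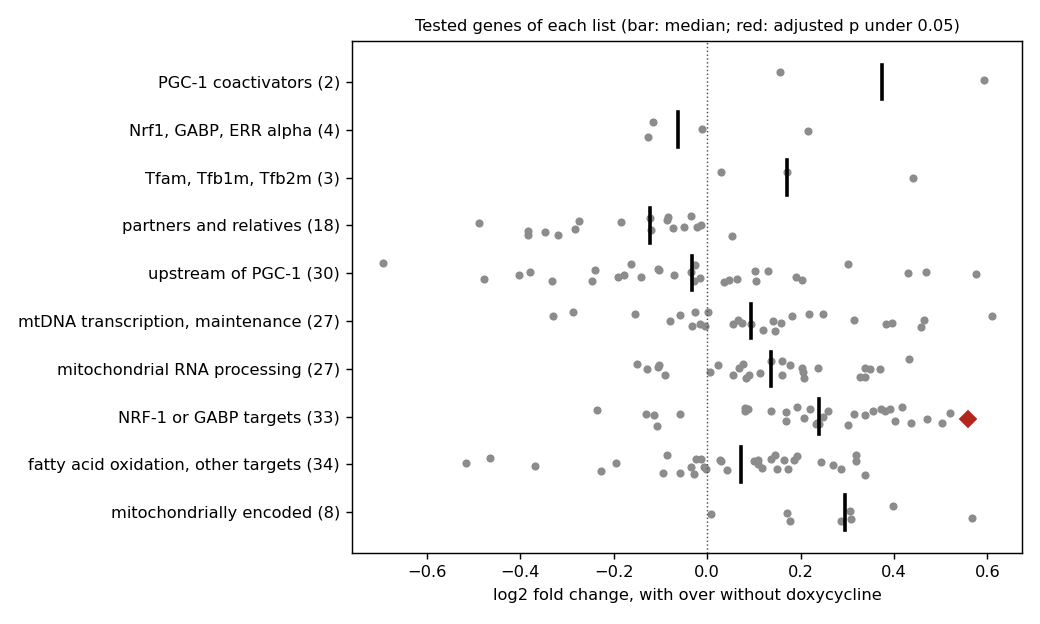
Log2 fold change with over without doxycycline of each tested gene in the 3 groups of regulators and the 7 pathway lists (number tested in parentheses); vertical bars are medians, and the red diamond is Uqcrb, the only gene with an adjusted p under 0.05. The partners list lies mostly below 0 (17 of 18) and the NRF-1 or GABP list mostly above 0 (28 of 33).

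The profile of Tfam over the 6 libraries was most closely followed by Zdhhc16, a palmitoyltransferase gene (Pearson r 0.998), Nmnat1, the nuclear enzyme of NAD synthesis (0.997), and Trmt6, a tRNA methyltransferase subunit (0.996), out of 10193 other genes with at least 5 CPM on average and counts in every library. These are the highest of many correlations over 6 libraries that share 3 lines, and they are given as a description.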

How the data were processed

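The authors deposited unnormalized read counts, in whole numbers, for every gene in each library. The submitters' processing notes name STAR and HTSeq, along with CASAVA, Picard, bedtools, DESeq2, R 3.3.0 and build mm10; the strand setting and annotation release are in none of the sources used here. Rows that name no gene held 43.7% to 47.7% of counts and were left out. Symbols were found for 48144 identifiers in GENCODE vM21. Counts were filtered (filterByExpr, minimum 10), scaled by TMM and tested in R 4.3.3 with edgeR 4.0.16 (quasi-likelihood F test, Benjamini-Hochberg over 14531 genes); an SE was obtained from the log2 fold change and the root of F. The pipeline was tested on simulated data. DESeq2 1.42.0 and limma 3.58.1 (voom) were alternatives.

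Members, lists and tests were chosen with earlier results of these data known. Named genes are the members, Npm1, up to 3 called genes per list (otherwise the 2 with the lowest p) and the 3 most like Tfam. Line ratios have exact binomial 95% intervals.

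Line numbers pair the libraries because each number is the same stable line. The main edgeR test of doxycycline left the line out of its model, and the alternative called replicate block put it in. Deviations from group means correlated with r = 0.0434, 0.0962 and 0.0274 within lines 3, 4 and 5. Between lines r ran from -0.112 to 0.0713, so these values did not set same-line pairs apart. The pairing rests on the line numbers in the labels alone. The p-values measure the spread between 3 lines; repeat cultures of a line, batches and dates are not given.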

Additional observations from a re-analysis of the deposited data

Results flagged for a closer look

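In 3 regulators the ratio with over without doxycycline lay on either side of 1 in different lines, beyond counting error. Nrf1 had a ratio of 1.10 in line 3 (95% counting interval 1.0003 to 1.21) and 0.886 in line 4 (0.809 to 0.969). Esrra had ratios of 0.891 in line 3 (0.839 to 0.945) and 0.802 in line 4 (0.759 to 0.848), and 1.08 in line 5 (1.02 to 1.14). Tfb2m had a ratio of 1.22 in line 3 (1.07 to 1.39) and 0.815 in line 5 (0.714 to 0.929). Each line had 1 library per condition, so the difference between lines in their response was not tested. Libraries of the same group also differed beyond counting error (chi-square per degree of freedom 7.86 to 108). The share of all genes with ratios on either side of 1 was not computed. The ratios also depend on the TMM factors, whose error the intervals do not include. These factors were 0.971 without and 0.896 with doxycycline in line 3, and 1.01 and 1.11 in line 4.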

How the results depend on the processing

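Over 17 alternative fits, 142 of 152 log2 fold changes of the 9 regulators kept their direction and 0 were called. The other 10 turned. Nrf1 became 0.0054 with offsets for length and GC content, and ranged from -0.0815 (without line 3) to 0.0646 (without line 4) with libraries or lines left out, with 0.0033 without untreated line 5 and 0.0574 without treated line 4. Gabpa became 0.0538 without treated line 3 and 0.0728 without line 3, in a range of -0.259 to 0.0728. Tfb2m became -0.0755 with offsets, -0.0078 without untreated line 4, -0.0804 without treated line 3 and -0.104 without line 3, in a range of -0.104 to 0.179. The others ranged from 0.48 to 0.69 (Ppargc1a), 0.05 to 0.38 (Pprc1), 0.12 to 0.30 (Gabpb1), -0.25 to -0.02 (Esrra, lowest without line 5 and highest without line 4), 0.11 to 0.26 (Tfam) and 0.34 to 0.53 (Tfb1m). Of 119 list medians, 2 changed sign, both with offsets: genes upstream of PGC-1 (0.02) and mitochondrially encoded genes (-0.01).

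The number of genes called with doxycycline, 332 in the main analysis, was 1052 without a filter, 720 with DESeq2, 51 among genes with at least 5 CPM, 121 at an adjusted p under 0.01, 593 at 0.1 and 243 with the replicate block, which changed no regulator's call. It ranged from 62 without line 4 to 1551 without treated line 3. Between those, it was 89, 117 and 182 without untreated lines 3, 4 and 5, 664 without line 3 and 197 without line 5. Removing macrophage and lymphocyte markers, chosen after seeing the data, left 289. For differences between lines, 0 genes were called in the main analysis, 240 without a filter, 16 with DESeq2 and 0 to 330 with 1 library left out (330 without untreated line 3); 0 regulators were called in the 11 alternatives, with a lowest adjusted p of 0.141. Motif counts in the members grew with the shorter core from 1 to 3 for NRF-1 and from 0 to 2 for GABP. With another length, 11 of 13 levels per kilobase moved by more than 1 SD; in 7 further cases the longest protein-coding transcript is the longest transcript. Depth limited Ppargc1a and Ppargc1b, with at most 63 and 16 counts per library.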
